A study of Bos taurus with 18 samples.

Results

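The mitochondrial carriers of the solute carrier family SLC25 were described in liver biopsies of dairy cows. The members were taken by gene symbol: probe sets with a single platform symbol of SLC25A and a number, without 3 urea cycle and carnitine carriers, and the brightest probe set of a symbol by its mean over the 18 arrays. This gave 41 carriers from 42 probe sets, of 18010 genes with a single symbol on the array. Carriers without such a probe set were not analysed here.

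The samples were 18 Bovine Gene 1.0 ST arrays, 1 array per cow, from multiparous Holstein cows biopsied 1 week after calving. The control group (n = 9) ate corn and grass silage-based mixed rations. The niacin group (n = 9) ate the same rations plus rumen-protected niacin (NiaShure), with a dosage of 79 mg/kg of body weight, starting 3 weeks ahead of the calving date, which the labels equate with 47 mg per kg at the duodenum and an estimated 31 mg per kg absorbable. No other treatment separated the groups, and all cows were in early lactation. The comparison asks which liver transcripts differ with niacin at this dose.

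Mitochondrial carriers sit in the inner membrane, which is closed to most metabolites, and exchange nucleotides, phosphate, carboxylates, amino acids and cofactors between matrix and cytosol. In liver they link the respiratory chain, gluconeogenesis, ureagenesis, fatty acid synthesis and haem synthesis. A few members have moved to other membranes, such as the peroxisome or the outer mitochondrial membrane. Niacin is a precursor of NAD, which enters mitochondria through SLC25A51.

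Values are log2 expression per probe set. They were used to compare cows for the same carrier, not one carrier with another, because the signal of a probe set also depends on its probes. Of the 41 carriers, 38 passed the filter on dim probe sets, which left out means under 4.35. SLC25A31, the ADP/ATP carrier of testis, lay between 2.71 and 3.40 over all cows and SLC25A35 between 4.04 and 4.56. SLC25A2, an ornithine carrier in humans, lay at 3.78, 3.96 and 4.07 (lowest, median and highest) in control cows and at 3.85, 4.09 and 4.39 in niacin cows. All 3 were too dim to enter the comparison. For SLC25A2, where 8 of 9 niacin cows were above the median of the control cows, the difference was 0.20, with an exact two-sided permutation p of 0.0118 and an adjusted p of 0.620 in a limma fit with no filter. That exact p was the smallest among the 41 carriers and was not adjusted for their number. SLC25A31, with all 9 niacin cows above the control median, differed by 0.12 (exact permutation p = 0.204). SLC25A35 differed by -0.01 (exact permutation p = 0.891). RNA from a whole biopsy does not tell fewer cells of a type from less RNA per cell.

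None of the 38 tested carriers passed limma's test of niacin against control at an adjusted p under 0.05, and 0% of all 18250 tested probe sets did. At an unadjusted p under 0.05, 1 carrier was higher with niacin (SLC25A22), where 3.34% of all probe sets were, and 1 was lower (SLC25A27), where 4.41% were. Both shares of the carriers were near these backgrounds. Fold changes lay above 0 for 20 carriers and below 0 for 18, with a median log2 fold change of 0.011, equal to the median over all tested probe sets (0.011). The values of the 2 groups overlapped in all 41 carriers, as they did over all tested probe sets, of which 0% were free of overlap. The adjusted p of the carriers lay between 0.636 and 0.994 (limma), and the 95% interval extended to either side by a median of 0.23.

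**Figure D1:**
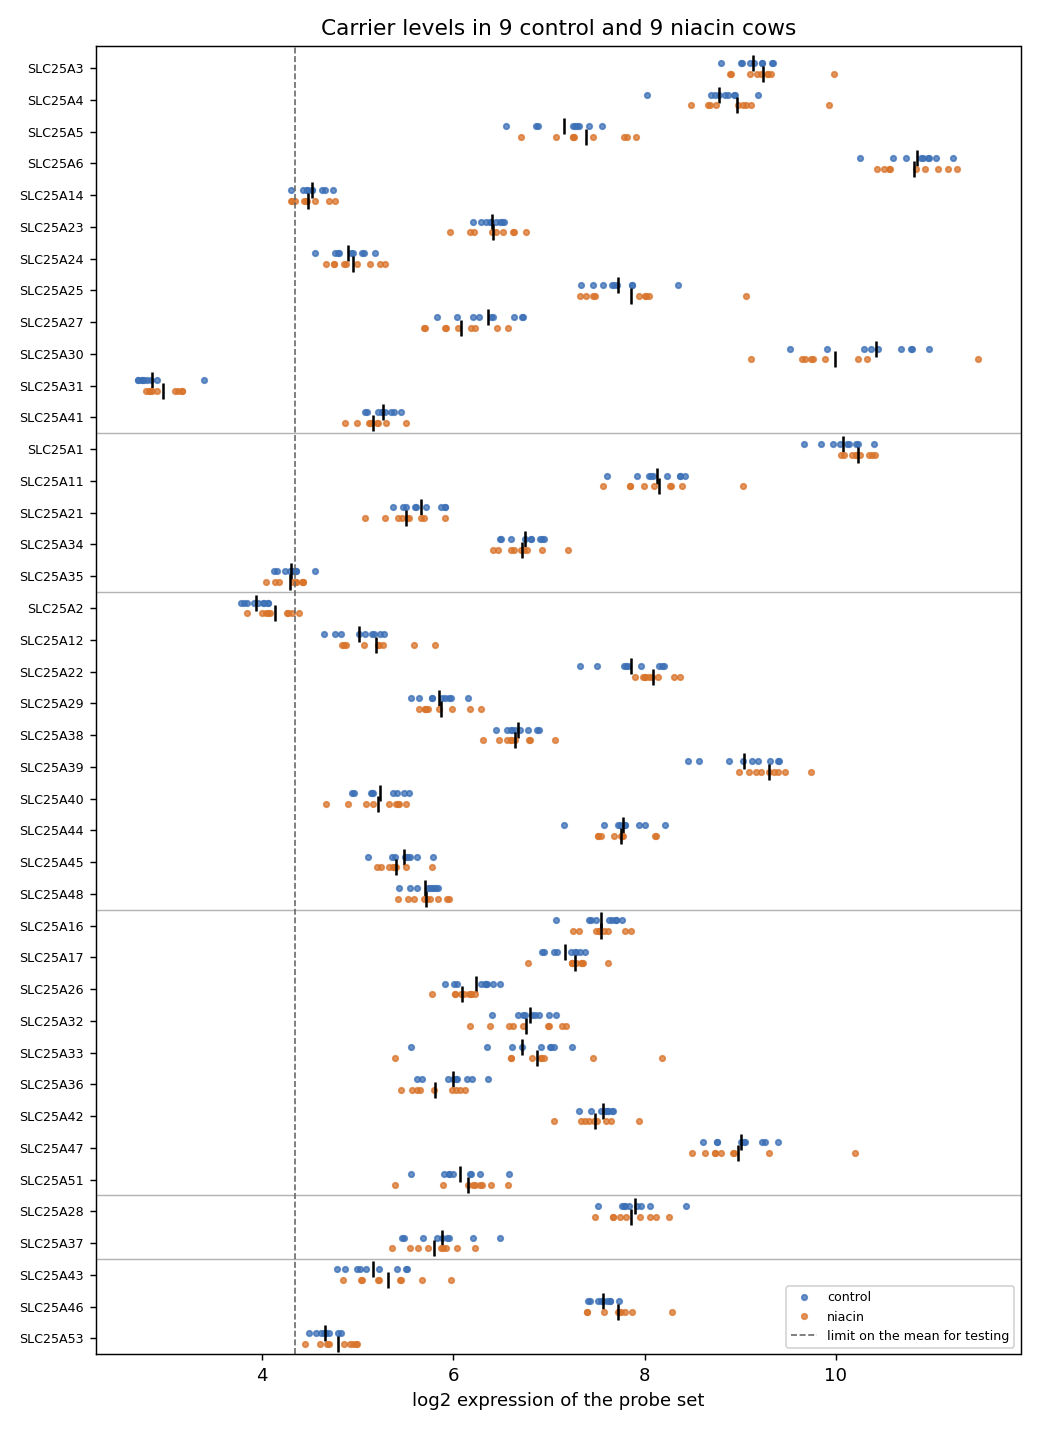
Log2 expression (x axis) of the 41 carriers (rows), with a point for each cow and a bar for the group mean (n = 9 each). Rows are in blocks by role, with adenine nucleotide, phosphate and uncoupling-type carriers at the top. The bottom block holds carriers of the outer membrane or with a substrate that is not settled. The groups overlap in every row, and 3 carriers have means left of the dashed limit of 4.35.

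**Figure D2:**
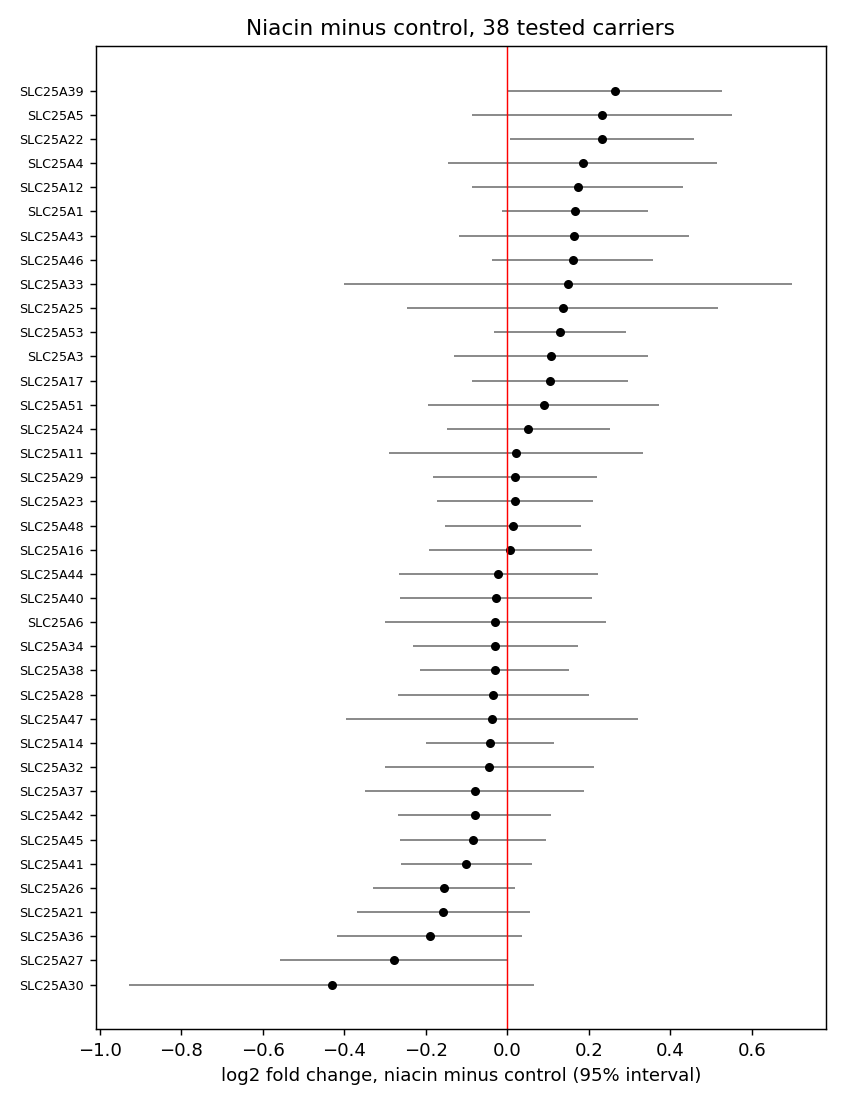
Log2 fold change, niacin minus control, of the 38 tested carriers with its 95% interval from limma. The points run from -0.43 (SLC25A30) to 0.26 (SLC25A39), and 36 of the 38 intervals include 0.

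The ADP/ATP carriers export the ATP that the respiratory chain makes and bring ADP back. SLC25A4, the isoform of heart and muscle, lay at 8.03, 8.84 and 9.19 (lowest, median and highest) in control cows and at 8.49, 8.98 and 9.93 in niacin cows. The groups overlapped, with control 12 far below and niacin 15 far above their own groups. Niacin minus control, the log2 fold change was 0.19 ± 0.16 (SE), or 0.065 without niacin 15. SLC25A5, the isoform of dividing cells, lay at 6.55, 7.27 and 7.56 in control and at 6.71, 7.26 and 7.91 in niacin cows. Its group medians thus nearly coincided, while the means differed by 0.23 ± 0.15, since niacin 3, 14 and 15 were above every control cow.

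SLC25A6, another ADP/ATP carrier, was the only symbol with a second probe set. The brighter one lay between 10.25 and 11.22 in control and between 10.43 and 11.27 in niacin cows, with a log2 fold change of -0.03 ± 0.13. The dimmer one lay between 7.37 and 8.01 in control and between 7.60 and 8.66 in niacin cows, with means of 7.78 and 7.96. The probe sets thus differed in direction, and the groups overlapped in both. The ADP/ATP carriers are close paralogs, and how far their probe sets share signal was not tested.

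SLC25A3, which imports the phosphate needed by ATP synthase, lay at 8.80, 9.14 and 9.34 in control and at 8.89, 9.22 and 9.98 in niacin cows. Niacin 15 held the 9.98 and the next niacin cow 9.32, inside the control range. Its log2 fold change was 0.11 ± 0.11, and 0.014 without that cow. SLC25A25, a calcium-regulated ATP-Mg/phosphate carrier that sets the adenine nucleotide pool of the matrix, lay at 7.34, 7.68 and 8.35 in control and at 7.33, 7.94 and 9.06 in niacin cows. The 9.06 again belonged to niacin 15, and the log2 fold change of 0.14 ± 0.18 became -0.015 without it. The related carriers SLC25A23, SLC25A24 and SLC25A41 had log2 fold changes of 0.019, 0.051 and -0.10.

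The uncoupling-type carriers held the carrier furthest from 0. SLC25A30, a relative of the uncoupling proteins first described in kidney, lay at 9.52, 10.44 and 10.97 in control and at 9.11, 9.76 and 11.49 in niacin cows. The niacin group held both the lowest cow (niacin 14) and the highest (niacin 15), and 8 of the 9 niacin cows were under the control group's median. The difference in SLC25A30 was -0.43 ± 0.24 on the log2 scale (95% interval -0.93 to 0.065, limma unadjusted p = 0.085, exact two-sided permutation p = 0.132). Without niacin 15 it was -0.62 ± 0.18, with a limma unadjusted p of 0.00293 and an adjusted p of 0.575, so it did not pass there either. With a leukocyte marker score as a covariate, an alternative chosen after the data were seen, it was -0.035 ± 0.25.

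SLC25A27, known as uncoupling protein 4 and best described in brain, lay at 5.83, 6.40 and 6.73 in control and at 5.70, 6.05 and 6.57 in niacin cows. The groups overlapped over most of their range, with 7 of the 9 niacin cows under the control median. Niacin minus control was -0.28 ± 0.13 on the log2 scale (limma unadjusted p = 0.0495, adjusted p = 0.645; exact permutation p = 0.0751). Its unadjusted p was under 0.05 in 6 of the 18 fits that left out 1 cow and reached 0.101 without niacin 14. SLC25A14, known as uncoupling protein 5, differed by -0.042. UCP2 and UCP3, family members listed under other symbols, differed by 0.066 and -0.078, and UCP1 was left out as dim.

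Among the carboxylate carriers, SLC25A1 exports citrate as the source of cytosolic acetyl-CoA for lipid synthesis. It lay at 9.67, 10.12 and 10.40 in control and at 10.05, 10.21 and 10.41 in niacin cows. The niacin cows filled the upper part of the control range, with 7 of 9 over the middle control cow. Citrate carrier expression differed by 0.17 ± 0.086 (95% interval -0.014 to 0.34, exact permutation p = 0.0689). SLC25A11 exchanges 2-oxoglutarate for malate in the malate-aspartate shuttle, and lay at 7.61, 8.09 and 8.42 in control and at 7.57, 8.10 and 9.03 in niacin cows. Its medians differed by less than the spread between cows, and the log2 fold change of 0.021 was -0.089 without niacin 15. SLC25A21, which imports 2-oxoadipate from lysine and tryptophan breakdown, differed by -0.16. SLC25A34, only grouped here with the carboxylate carriers, differed by -0.03.

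The amino acid carriers held the other carrier under an unadjusted p of 0.05. SLC25A22, which moves glutamate with a proton into the matrix, lay at 7.33, 7.83 and 8.20 in control and at 7.90, 8.05 and 8.37 in niacin cows. Each of the 9 niacin cows exceeded the control median, but 4 of the control cows reached into the niacin range. SLC25A22 differed by 0.23 ± 0.11 (SE, log2 scale, 1.17-fold; limma unadjusted p = 0.0438, adjusted p = 0.636), while the exact permutation p was 0.0572. The spread was wider in control cows (SD 0.30) than in niacin cows (SD 0.16), and control 12 and 36 were the lowest of all 18. Without control 36 the log2 fold change was 0.17 with an unadjusted limma p of 0.102, and the unadjusted p was under 0.05 in 8 of the 18 fits that left out 1 cow.

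SLC25A39, a carrier of glutathione into mitochondria, lay at 8.45, 9.12 and 9.40 in control and at 8.99, 9.30 and 9.74 in niacin cows. The same control cows 12 and 36 were lowest here. Here the log2 fold change was 0.26 ± 0.13 (limma unadjusted p = 0.0506, exact permutation p = 0.0753), and its relative SLC25A40 differed by -0.028. SLC25A12, an aspartate-glutamate carrier of the malate-aspartate shuttle, lay at 4.65, 5.08 and 5.28 in control and at 4.84, 5.21 and 5.81 in niacin cows. Niacin 8 was the highest, and the log2 fold change of 0.17 ± 0.12 was 0.096 without it. Niacin 8 was also the cow with the highest red cell marker score (6.22, where the other cows lay at 4.55 to 5.08). It had the highest leukocyte marker score as well (6.71, with niacin 7 next at 6.64).

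SLC25A38, a glycine carrier that feeds haem synthesis, lay at 6.45, 6.65 and 6.90 in control and at 6.31, 6.60 and 7.06 in niacin cows, with a log2 fold change of -0.031. The niacin range enclosed the control range. SLC25A29, a carrier of basic amino acids, differed by 0.019 and SLC25A44, a carrier of branched-chain amino acids, by -0.022. SLC25A45 and SLC25A48 differed by -0.083 and 0.014. Of the 9 tested amino acid and glutathione carriers, 5 were above 0 and 4 below.

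The cofactor and nucleotide carriers include SLC25A51, through which NAD enters mitochondria. It lay at 5.56, 6.0 and 6.58 in control and at 5.39, 6.23 and 6.57 in niacin cows. The ranges were nearly the same, although 7 of the 9 niacin cows exceeded the control median. Its log2 fold change was 0.09 ± 0.14, with a 95% interval of -0.19 to 0.37 and an exact permutation p of 0.559. Niacin 39 was the lowest of all 18 cows, and without it the log2 fold change was 0.19.

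SLC25A47, a carrier found mainly in liver, lay at 8.61, 9.04 and 9.39 in control and at 8.5, 8.80 and 10.20 in niacin cows. Niacin 15 was far above the next niacin cow (9.30), and 7 of the 9 niacin cows were under the control median. Its log2 fold change was -0.038 ± 0.17, and -0.19 ± 0.12 without niacin 15. SLC25A42, which imports coenzyme A, lay at 7.32, 7.60 and 7.67 in control and at 7.05, 7.47 and 7.94 in niacin cows. Its control cows kept close together (SD 0.11) and its niacin cows were wider apart (SD 0.24), with a log2 fold change of -0.08 ± 0.09. SLC25A16, long linked to coenzyme A, lay at 7.08, 7.63 and 7.76 in control and at 7.25, 7.52 and 7.86 in niacin cows, a log2 fold change of 0.0078. SLC25A17, which carries cofactors into peroxisomes, lay at 6.93, 7.23 and 7.38 in control and at 6.78, 7.28 and 7.62 in niacin cows, a log2 fold change of 0.10. Both pairs of ranges overlapped, with control 12 lowest in the first and niacin 19 in the second.

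SLC25A26, which imports S-adenosylmethionine for methylation inside mitochondria, lay at 5.92, 6.33 and 6.49 in control and at 5.78, 6.11 and 6.23 in niacin cows. Each of the 9 niacin cows was under the control median, and 3 control cows lay below the highest niacin cow. SLC25A26 differed by -0.16 ± 0.084 (limma unadjusted p = 0.0778, exact permutation p = 0.0761), and by -0.038 with the leukocyte score as a covariate. SLC25A36 and SLC25A33 carry pyrimidine nucleotides. SLC25A36 differed by -0.19 ± 0.11. SLC25A33 had the widest spread of all, at 5.56, 6.92 and 7.24 in control and 5.39, 6.92 and 8.18 in niacin cows. Its group medians were equal, control 37 and niacin 39 stood lowest and niacin 15 highest, and the log2 fold change was 0.15 ± 0.26. It was -0.014 without niacin 15 and 0.34 without niacin 39. SLC25A32, a carrier of folate and FAD, differed by -0.044.

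The mitoferrins SLC25A37 and SLC25A28 bring iron into mitochondria for haem and iron-sulphur clusters, SLC25A37 mainly in developing red cells. SLC25A37 lay at 5.47, 5.88 and 6.49 in control and at 5.36, 5.87 and 6.23 in niacin cows, with a log2 fold change of -0.08 ± 0.13. SLC25A28 lay at 7.51, 7.84 and 8.43 in control and at 7.48, 7.81 and 8.26 in niacin cows, with -0.034 ± 0.11. Both had nearly equal medians, and control 23 was the highest of all 18 cows in both. Without it the log2 fold changes were -0.0043 and 0.032. SLC25A37 in niacin 8, the cow with the highest red cell score, was 5.87, the median of its group.

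SLC25A46, which lies in the outer membrane and takes part in mitochondrial fission and fusion, lay at 7.41, 7.57 and 7.73 in control and at 7.40, 7.73 and 8.29 in niacin cows. Its log2 fold change was 0.16 ± 0.095, or 0.091 without niacin 15. SLC25A43 and SLC25A53, whose substrates are not settled, differed by 0.16 and 0.13. All 3 were above 0, and none had an unadjusted p under 0.05. MTCH1 and MTCH2, outer membrane relatives listed under other symbols, differed by 0.09 and -0.038.

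By the RefSeq gene order (assembly ARS-UCD2.0), no other protein-coding gene lay between SLC25A29 and SLC25A47 on chromosome 21, SLC25A23 and SLC25A41 on chromosome 7, or SLC25A43 and SLC25A5 on chromosome X. The log2 fold changes were 0.019 and -0.038 in the first pair, 0.019 and -0.10 in the second and 0.16 and 0.23 in the third.

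Carriers varied between cows of the same group by a median SD of 0.25, against 0.20 over all tested probe sets. Of the 38, 27 (71.1%) lay above the median of all probe sets and 7 (18.4%) in the widest 10% of them. These 7 were SLC25A33 (SD 0.64), SLC25A30 (0.57), SLC25A25 (0.43), SLC25A47 (0.41), SLC25A4 (0.37), SLC25A5 (0.36) and SLC25A11 (0.35). The narrowest was SLC25A14 (0.15). The spread of several of the 7 depended on niacin 15. Among niacin cows alone, leaving it out took the SD from 0.51 to 0.24 in SLC25A47 and from 0.42 to 0.23 in SLC25A4. It went from 0.42 to 0.28 in SLC25A11, 0.54 to 0.32 in SLC25A25 and 0.66 to 0.37 in SLC25A30. In SLC25A33 it went from 0.74 to 0.60, and in SLC25A5 it stayed at 0.39. The 27 and the 7 were not counted again without that cow. Niacin 15 held the single highest value of the 18 cows in 12 of 38 carriers (31.6%), where it held 9.47% over all probe sets. Niacin 19 held the lowest value in 7 carriers and control 12 in 6, or 18.4% and 15.8%, against 6.45% and 5.70% over all probe sets.

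**Figure D3:**
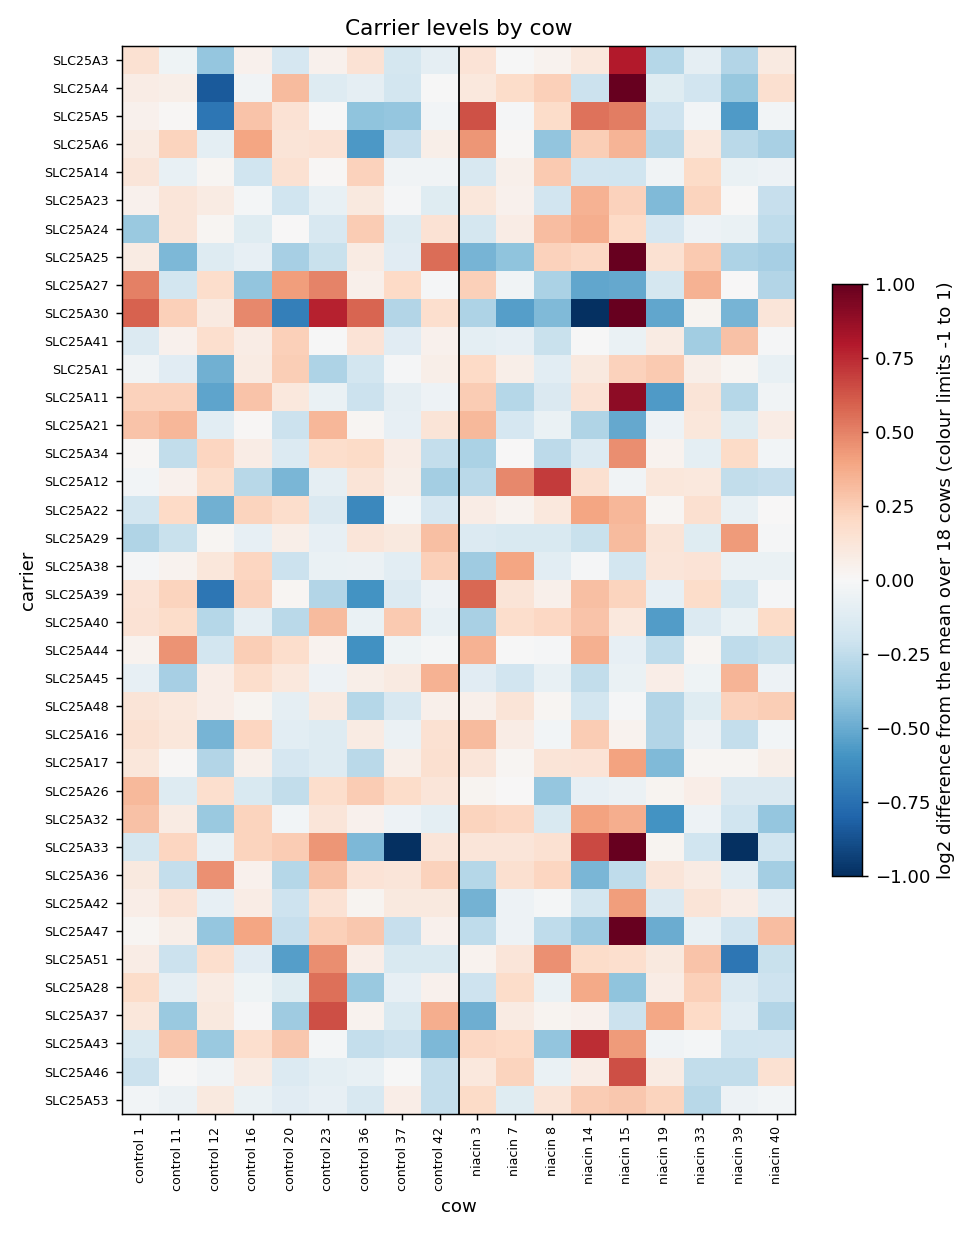
Log2 difference of each tested carrier from its mean over 18 cows (rows, 38 carriers by role; columns, cows, control left of the line), with colours limited to -1 and 1. The column of niacin 15 holds the highest value of SLC25A3, SLC25A4, SLC25A11, SLC25A25, SLC25A30, SLC25A33 and SLC25A47, among others of its 12.

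The spread between cows was set beside 4 list scores, each the mean log2 value per cow over the measured genes of a list, in a limma fit over all probe sets with the group as a covariate. A slope is the log2 difference of the carrier for a score higher by 1. On the score of fatty acid oxidation and PPARA targets (27 genes), SLC25A47 had a slope of 1.97 ± 0.33 (SE, adjusted p = 0.0136) and SLC25A30 a slope of 2.57 ± 0.50 (adjusted p = 0.0379). These 2 of 38 carriers were the ones past the adjusted threshold with a positive slope, where 0.159% of all probe sets were. Of the 31 probe sets past it in either direction, 6 were genes of the list itself. At an unadjusted p under 0.05, 7 carriers had a positive slope and 0 a negative one, where 5.13% and 3.50% of all probe sets did. The other 5 were SLC25A3, SLC25A4, SLC25A11, SLC25A33 and SLC25A42. With the median of the list the counts were 3 positive and 1 negative, where 2.92% and 2.54% of all probe sets were. Without niacin 15 they were 5 positive and 1 negative, where 3.61% and 3.7% were.

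SLC25A47 had a Pearson r of 0.814 with this score over 18 cows (permutation p = 2e-05, 0.00304 adjusted over the 152 relations of 38 carriers with 4 scores) and a Spearman rho of 0.825 (permutation p = 4e-05, adjusted 0.00608). The r was 0.800 within control and 0.849 within niacin cows, and 0.822 without niacin 14 and 39, the cows furthest from the median score. SLC25A30 had an r of 0.777 (permutation p = 0.0002, adjusted 0.0152) and a rho of 0.740 (permutation p = 0.00081, adjusted 0.041), with r at 0.692 within control, 0.800 within niacin cows and 0.734 without niacin 14 and 39. The scores left their widest inner step between 9.37 and 9.47, a division seen only in the data and given without a test. Among the 8 cows below it, r was 0.228 for SLC25A47 and -0.0283 for SLC25A30, and among the 10 above it 0.756 and 0.660.

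Niacin 15, the cow with the highest score (9.71), decided both calls. Without it the slope was 1.35 ± 0.28 for SLC25A47 (adjusted p = 0.123) and 1.86 ± 0.51 for SLC25A30 (adjusted p = 0.383). The call of SLC25A47 held without any other single cow. That of SLC25A30 was also lost without control 1, 16, 23, 37 or 42 or niacin 14, 19 or 33. With the median of the list in place of its mean, the slopes were 1.18 and 1.72 and the adjusted p-values 0.536 and 0.448 (limma).

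**Figure D4:**
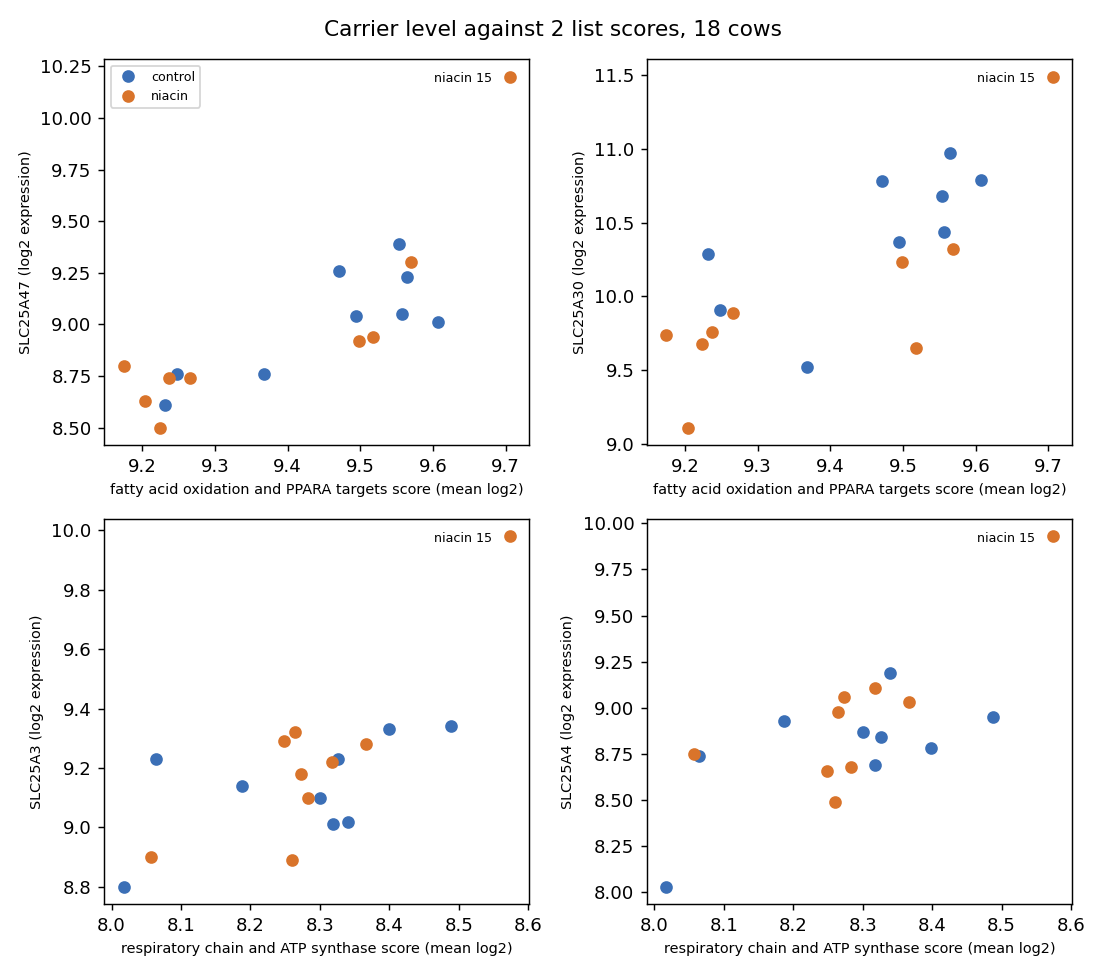
Log2 expression of 4 carriers against the score of fatty acid oxidation and PPARA targets (top) or of the respiratory chain and ATP synthase (bottom), 1 point per cow, 9 control and 9 niacin. SLC25A47 runs from 8.5 to 10.20 and SLC25A30 from 9.11 to 11.49, and niacin 15 lies at the upper right in all 4 panels.

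On the score of the respiratory chain and ATP synthase (68 genes), 0 carriers passed the adjusted threshold, where 0.345% of all probe sets did. At an unadjusted p under 0.05, 8 carriers had a positive slope and 1, SLC25A28, a negative one, where 6.02% and 5.23% of all probe sets did. The smallest p-values belonged to SLC25A4 (slope 1.84 ± 0.44, adjusted p = 0.0679), SLC25A3 (1.28 ± 0.32, adjusted p = 0.0888) and SLC25A11 (1.64 ± 0.43, adjusted p = 0.0941). The other 5 were SLC25A16, SLC25A17, SLC25A25, SLC25A32 and SLC25A47. Leaving out niacin 15 brought the 8 down to 5, where 5.69% of all probe sets had such a positive slope. It brought the 3 slopes to 1.26, 0.78 and 1.10 in the same order. Without control 23, SLC25A3 passed at an adjusted p of 0.0369. Its Pearson r over 18 cows was 0.714 (permutation p = 0.00084, 0.0426 adjusted over the 152 relations). Its rho was 0.564 (permutation p = 0.0166, adjusted 0.285). The r of SLC25A3 was 0.587 within control and 0.871 within niacin cows, and 0.421 without niacin 15 and control 12. For SLC25A4, the Pearson r over 18 cows was 0.709 (permutation p = 0.0016, 0.0603 adjusted over the 152 relations) and rho 0.585 (p = 0.0122, adjusted 0.285), with r at 0.650 within control and 0.796 within niacin cows. It fell to 0.321 without niacin 15 and control 12, the cows furthest from the median score, so that this relation rests largely on them.

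For slopes on the marker scores, 0 carriers passed the adjusted threshold. Of all probe sets, 0.121% did for red cells (10 genes) and 0.0493% for leukocytes (44 genes). At an unadjusted p under 0.05, 1 carrier (SLC25A12) had a positive and 0 a negative slope on the red cell score, where 3.90% and 3.56% of all probe sets did. With the median of the red cell list in place of its mean, the counts were 0 positive and 6 negative, where 3.46% and 3.74% of all probe sets were. The slope of SLC25A12 was 0.41 ± 0.17, and -0.22 without niacin 8, and its r with the score was -0.0765 without niacin 8 and control 1. On the leukocyte score it was 0 positive and 4 negative (SLC25A3, SLC25A26, SLC25A30 and SLC25A34), where 4.69% and 2.61% did. Without niacin 15 it was 1 positive and 1 negative, where 4.09% and 2.61% of all probe sets did. With the median of the leukocyte list it stayed at 0 and 4, where 3% and 2.14% did. Of the 4 negative slopes as reported, SLC25A30 had the steepest, at -2.82 with an adjusted p of 0.470 (limma), and -1.68 without niacin 15. Over all cows and without the group as a covariate, its Spearman rho with this score was -0.763 (permutation p = 0.00035). That p was 0.0266 when adjusted over all relations of tested carriers with scores. Its Pearson r was -0.628 (permutation p = 0.00538, adjusted 0.0909). The r was -0.668 within control and -0.476 within niacin cows, and -0.626 without control 1 and niacin 8.

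None of the cell type markers passed an adjusted p of 0.05 (limma). The biopsies were dominated by hepatocyte transcripts, with ALB between 13.35 and 13.52 in all cows. Of 14 hepatocyte markers, 12 had a log2 fold change below 0 and 4 were lower at an unadjusted p under 0.05, where 8437 of 18250 and 4.41% of all probe sets were. Their score lay at 11.54 to 11.78 in control and 11.39 to 11.70 in niacin cows. Of 12 macrophage markers, 11 were above 0 and 4 higher at an unadjusted p under 0.05, where 9813 of 18250 and 3.34% of all probe sets were, with scores of 8.33 to 8.85 and 8.40 to 9.25. Of 9 neutrophil markers, 8 were above 0 and 3 higher, with scores of 5.27 to 5.69 and 5.47 to 6.42. Of 14 T and NK cell markers, 12 were above 0 and 3 higher, with scores of 5.47 to 5.87 and 5.67 to 5.97. Of 8 tested B and plasma cell markers, also part of the leukocyte score, 4 were above 0 and 4 below. Among them 1 was higher, and their scores were 5.08 to 5.55 and 5.25 to 5.43. Endothelial markers were 6 above 0 and 4 below, stellate and fibroblast ones 4 and 5, and red cell ones 6 and 1. Bile duct markers were 3 above 0 and 2 below, adipocyte ones 3 and 0, and skeletal muscle ones 3 and 2. With the leukocyte score as a covariate, the log2 fold change was 0.18 for SLC25A22 and -0.21 for SLC25A27, 24 carriers were above 0 and 14 below, and SLC25A3 (0.27, unadjusted p = 0.044) had the one unadjusted p under 0.05. At an adjusted p under 0.05, 0 carriers passed that fit (limma).

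The genes around the carriers gave 0 adjusted calls as well. Their counts at an unadjusted p under 0.05 stand beside 3.34% of all probe sets higher and 4.41% lower. The carrier import machinery (14 tested genes) had 0 higher and 1 lower, namely TOMM22, a receptor of the outer membrane (-0.20 ± 0.089). Of 18 other mitochondrial transporters, 2 were higher, the ABC transporter gene ABCB8 (0.23 ± 0.069) and the ion exchanger gene LETM1 (0.17 ± 0.079). Of 27 enzymes that work on either side of the carriers, 1 was higher and 3 lower. These were GOT1, the cytosolic aspartate aminotransferase of the malate-aspartate shuttle (0.39 ± 0.16), ALAS1, the first enzyme of haem synthesis (-0.45 ± 0.15), PCK1, of gluconeogenesis (-0.20 ± 0.086), and NNT, the mitochondrial transhydrogenase (-0.20 ± 0.091). The adjusted p of these 7 genes lay between 0.453 and 0.643 (limma).

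Of 66 tested genes of the respiratory chain and ATP synthase, none in either direction had an unadjusted p under 0.05, with a median log2 fold change of 0.02. Of 26 fatty acid oxidation and PPARA target genes, 0 were higher and 2 lower, beside the same 3.34% and 4.41%, namely DECR1, an auxiliary enzyme for unsaturated fatty acids (-0.21 ± 0.087), and ACAA1, a peroxisomal thiolase (-0.15 ± 0.069). Their median was -0.074. Of 15 regulators of mitochondrial biogenesis, 0 were higher and 1 lower, TFB1M, which methylates mitochondrial ribosomal RNA (-0.23 ± 0.096), and the median was -0.042.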

How the data were processed

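The authors hybridised liver RNA of 18 cows to Affymetrix arrays and, per the submitters' processing notes, made the deposited log2 values with Affymetrix Expression Console and RMA, whose versions the sources used here do not give. Quantile normalization in RMA hides a shift common to most genes. Per the labels' protocols, the submitters had left out the 2 samples of lowest RNA integrity in each group. Array medians lay between 5.57 and 5.72, and precision is limited by the 18 arrays. Cow numbers in the titles did not overlap between groups.

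Dim probe sets, the 0.25 share with the smallest mean (6083 of 24333), were left out. The other 18250 were fitted with limma 3.58.1 in R 4.3.3 (lmFit, eBayes, niacin minus control, no covariate), with Benjamini-Hochberg adjustment over all of them and a two-sided threshold of 0.05. Exact permutation p-values used all 48620 allocations of 18 arrays to 9 and 9 (Python 3.11.15), and those of correlations 100000 resamples. Gene symbols came from the platform annotation (18457 probe sets with 1 symbol, 688 with several, 5188 with none), and 40 of 41 carriers matched a RefSeq gene by ID. The scripts were tested on simulated data.

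Members, lists and tests were chosen with earlier results of these data known. Full values were given for carriers with an unadjusted p under 0.05, the 4 with the largest SD over all cows, 16 fixed by name for known roles (15 measured), those past the threshold on a score and those with a cow standing apart. In other lists, genes with an unadjusted p under 0.05 were named (at most 4, by smallest p). SLC25A39 and SLC25A46 were added after their values were seen. SLC25A2 was also given in full, though it met none of the rules for carriers in the reported fit. Alternatives were other filters, variance moderation, array weights, normalization, centring, probe set choice, removal of each array's trend over gene length, a leukocyte covariate, other score settings and leaving out each array.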

Additional observations from a re-analysis of the deposited data

Results flagged for a closer look

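Single cows stood apart from their group in 9 of 82 groups of 9 values (41 carriers in 2 groups), by Dixon's gap test at its 95% limit. About 1 in 20 would be marked by chance, or 4.1, and the groups come from the same 18 cows. Niacin 15 was the highest niacin cow in 4 of them: SLC25A3 at 9.98 (next 9.32), SLC25A4 at 9.93 (next 9.11), SLC25A25 at 9.06 (next 8.05) and SLC25A47 at 10.20 (next 9.30). It also had the highest scores of all cows for fatty acid oxidation and PPARA targets (9.71) and for the respiratory chain and ATP synthase (8.57), while its array median was 5.66. Control 12 was the lowest control cow for SLC25A4 at 8.03 (next 8.69) and for SLC25A16 at 7.08 (next 7.42), and had the lowest respiratory chain score of all cows (8.02). Among niacin cows, niacin 19 was lowest for SLC25A17 at 6.78 (next 7.24) and niacin 8 for SLC25A26 at 5.78 (next 6.02). Control 42 was highest for SLC25A31 at 3.40 (next 2.91), a carrier that was too dim to be tested. The cause of these values was not tested.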

How the results depend on the processing

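Under all alternatives run and on leaving out each array, 0 carriers passed an adjusted p of 0.05 for niacin against control, and the median log2 fold change moved by less than the spread between cows. The count at an unadjusted p under 0.05 did move. As reported it was 1 higher and 1 lower. It was 2 higher and 0 lower with no filter, 2 higher with an intensity trend and robust variances or a second quantile normalization, 0 lower with a filter at the median of all means or the leukocyte covariate (chosen after the data were seen), and 0 in both directions with array weights, array median centring or the gene length trend removed. Leaving out 1 array gave 0 to 4 higher and 0 to 3 lower. Besides, 0 to 6 carriers changed sign per alternative, all without a call. SLC25A22 kept its unadjusted p under 0.05 in 6 and SLC25A27 in 4 of the 10 settings other than leaving out arrays, the reported one included.

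Carriers past the threshold on the fatty acid oxidation score numbered 2, and 0 with the median of the list. Of all probe sets, 0.17% and 0.0164% passed there in either direction. Leaving out 1 array gave 0 to 2 carriers, with 0 without niacin 15. Of all probe sets, 0.0384% to 0.247% passed on leaving out 1 array, with 0.0384% without niacin 15. On the respiratory chain score the carriers past the threshold numbered 0, and 0 to 1 on leaving out an array (1 without control 23). Of all probe sets, 0.345% passed on that score as reported and 0.312% without control 23. Without control 12, niacin 15 or niacin 19, 0% of all probe sets passed on it. No paired analysis was run, because the cow numbers of the groups do not overlap and the labels give no matching of cows. With 9 arrays a group, the unadjusted 95% interval of a carrier extended to either side by a median of 0.23 on the log2 scale. Larger differences, such as -0.43 for SLC25A30 and 0.26 for SLC25A39, did not pass the adjusted threshold either.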
